A study of Mus musculus with 12 samples.

Results

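Liver cells and most other cells of the body run the same reactions of sugar metabolism with different isozymes, and 8 genes of these reactions were followed here through the conversion of mouse hepatocytes toward biliary cells. The genes were the rows of the count table with the symbols Hk1, Hk2, Pkm and Aldoa, called the general isozymes below, and Pklr, Fbp1, Pck1 and Khk, called the liver enzymes below. All 8 were found among 53599 genes in the table, and all 8 passed the filter on low counts, which kept 16210 genes. Bulk RNA had been sequenced from 12 libraries of sorted liver cells, 3 in each of 4 groups, to follow the stages of hepatobiliary reprogramming in the adult mouse. All groups came from wild-type mice that were given AAV8-TBG-Cre, a virus that drives Cre recombinase from the hepatocyte promoter TBG and was used to trace hepatocytes, and EGFP was the label sorted on. Such tracing needs a reporter allele that Cre switches on, and the labels used here name none beside the wild-type genotype. The mice then ate 0.1% DDC, a diet that injures bile ducts, for 8 weeks, starting 1 week after the virus.

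The early group was EGFP+ Cd24- Epcam-, the intermediate group EGFP+ Cd24+ Epcam-, and the full group EGFP+ Cd24+ Epcam+. The BEC group, the biliary epithelial cells that did not carry the hepatocyte label, was EGFP- Epcam+. The virus and the diet were shared by all 4 groups, so none of these libraries stands for an uninjured liver, and hepatocytes that the virus did not reach are not labelled. The labels used here give no age and do not say whether the replicates of a group came from separate mice, so the p-values below measure the spread between these libraries, which may be technical. In bulk samples such as these, fewer cells of a type and less RNA per cell cannot be told apart.

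Glycolysis splits glucose into pyruvate, and gluconeogenesis, a main task of the liver in fasting, runs the path backwards. Most steps are shared, but the steps at hexokinase, phosphofructokinase and pyruvate kinase run one way only and are bypassed in gluconeogenesis by other enzymes, among them fructose-1,6-bisphosphatase (Fbp1) and phosphoenolpyruvate carboxykinase (Pck1). Hepatocytes make pyruvate with the liver form of pyruvate kinase (Pklr) and take up fructose into metabolism through ketohexokinase (Khk). Most other cells use the high-affinity hexokinases Hk1 and Hk2, aldolase A (Aldoa) and the products of Pkm, which is spliced into the M1 and M2 forms of pyruvate kinase.

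The start sites of these genes are shown first, for both of the sets named above. Whether their CpG content went with any change in expression was not tested. Each window below holds 250 bases before to 50 bases after a start, read 5′ to 3′ on the strand of the gene, from RefSeq on GRCm38.p6. The counts were made on GRCm39, so these coordinates are not those of the deposited table. Capitals mark CpG dinucleotides. The windows are those of Pkm (chr9:59656326-59656625, plus strand), Hk2 (chr6:82774405-82774704, minus strand), the downstream start of Pklr (chr3:89136373-89136672, plus strand), Pck1 (chr2:173152823-173153122, plus strand) and Khk (chr5:30921309-30921608, plus strand).
Pkm: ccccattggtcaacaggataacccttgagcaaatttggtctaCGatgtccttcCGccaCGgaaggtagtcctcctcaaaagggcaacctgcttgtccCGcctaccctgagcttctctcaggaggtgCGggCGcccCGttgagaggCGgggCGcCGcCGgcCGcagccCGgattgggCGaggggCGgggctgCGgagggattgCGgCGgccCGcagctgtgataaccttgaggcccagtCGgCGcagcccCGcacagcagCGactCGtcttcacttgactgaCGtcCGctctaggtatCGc
Hk2: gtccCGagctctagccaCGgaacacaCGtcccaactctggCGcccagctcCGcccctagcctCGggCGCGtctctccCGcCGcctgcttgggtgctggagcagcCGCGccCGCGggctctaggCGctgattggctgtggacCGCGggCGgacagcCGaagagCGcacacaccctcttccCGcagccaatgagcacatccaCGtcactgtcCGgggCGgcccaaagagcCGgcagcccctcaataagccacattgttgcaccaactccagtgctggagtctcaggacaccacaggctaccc
Pklr: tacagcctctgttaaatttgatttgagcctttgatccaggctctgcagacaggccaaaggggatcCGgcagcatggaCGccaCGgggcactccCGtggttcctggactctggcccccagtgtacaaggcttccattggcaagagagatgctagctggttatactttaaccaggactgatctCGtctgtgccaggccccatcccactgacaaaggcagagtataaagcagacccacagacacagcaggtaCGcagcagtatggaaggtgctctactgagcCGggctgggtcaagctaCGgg
Pck1: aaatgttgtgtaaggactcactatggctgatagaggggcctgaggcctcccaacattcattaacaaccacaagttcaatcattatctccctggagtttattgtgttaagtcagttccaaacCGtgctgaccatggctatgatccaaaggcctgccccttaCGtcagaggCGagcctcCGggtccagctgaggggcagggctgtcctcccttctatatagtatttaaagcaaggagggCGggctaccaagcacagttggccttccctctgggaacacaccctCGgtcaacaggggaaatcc
Khk: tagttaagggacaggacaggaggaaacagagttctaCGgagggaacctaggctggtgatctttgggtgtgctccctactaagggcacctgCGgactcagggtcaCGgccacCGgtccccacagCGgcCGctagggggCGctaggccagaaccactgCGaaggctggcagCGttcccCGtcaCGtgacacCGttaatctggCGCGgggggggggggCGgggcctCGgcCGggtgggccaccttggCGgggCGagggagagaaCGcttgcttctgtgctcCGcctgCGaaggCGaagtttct
All 8 genes had an entry, with 13 windows in all. The Pkm window printed above held 27 CpG and its second window 23, and the Hk2 window held 25. At Hk1 the upstream window held 1 CpG and the downstream window 20, and at Aldoa the 3 windows held 0, 24 and 23. The Pklr windows held 3 and 8 CpG, and those of Fbp1 and Pck1 held 6 each. Khk was the exception among the liver enzymes, with 23. Over all 32851 RefSeq promoter windows of this length the median was 7 CpG, and 26.5% of windows held at least 20. Of the motifs searched on both strands, CACGTG (an E-box) was found in the Khk window alone of the 13 and in 7.15% of all windows. TATAAA was found in the downstream Pklr window alone of the 13 and in 13.6% of all windows. GGGCGG (a GC box) was found in windows of Hk2, Pkm, Aldoa, Fbp1, Pck1 and Khk and in 35.7% of all windows. CCAAT was found in windows of Hk2, Pkm, Aldoa, Pklr and Fbp1 and in 37.4% of all windows. These are matches of letters in RefSeq windows, and the counts per gene do not say which start a transcript used.

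Expression is given as CPM, the usual depth-scaled count, computed with TMM factors, and changes as log2 fold changes from edgeR's quasi-likelihood test with its standard error (SE) and Benjamini-Hochberg adjusted p over the 16210 genes. A gene was called at an adjusted p under 0.05. From early to BEC, the end points of the series, all 4 general isozymes rose and all 4 liver enzymes fell, in a comparison that called 73.1% of all genes (40.0% higher, 33.0% lower). At the gain of Cd24, from early to intermediate, Hk1 and Pkm rose, all 4 liver enzymes fell, and Hk2 and Aldoa were not called, with 54.4% of all genes called (28.7% higher, 25.7% lower). At the gain of Epcam, from intermediate to full, Hk1, Hk2 and Pkm rose and all 4 liver enzymes fell, with 40.7% of all genes called (20.8% higher, 19.8% lower). BEC did not carry the hepatocyte label, so they are not a later stage of the full cells. In BEC against full, Hk1, Hk2 and Pkm were higher and Pklr, Fbp1 and Khk lower, with 21.3% called (10.7% higher, 10.6% lower). The median log2 fold change of the general isozymes was 1.18, 1.77 and 0.79 at the 3 successive comparisons, and that of the liver enzymes was -2.29, -1.83 and -0.76. Over all genes tested the medians were 0.06, 0.01 and 0.01. The comparisons share groups, so they are not independent of each other. Overlap between libraries is described gene by gene below. The share of all genes without overlap was not counted.

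**Figure D1:**
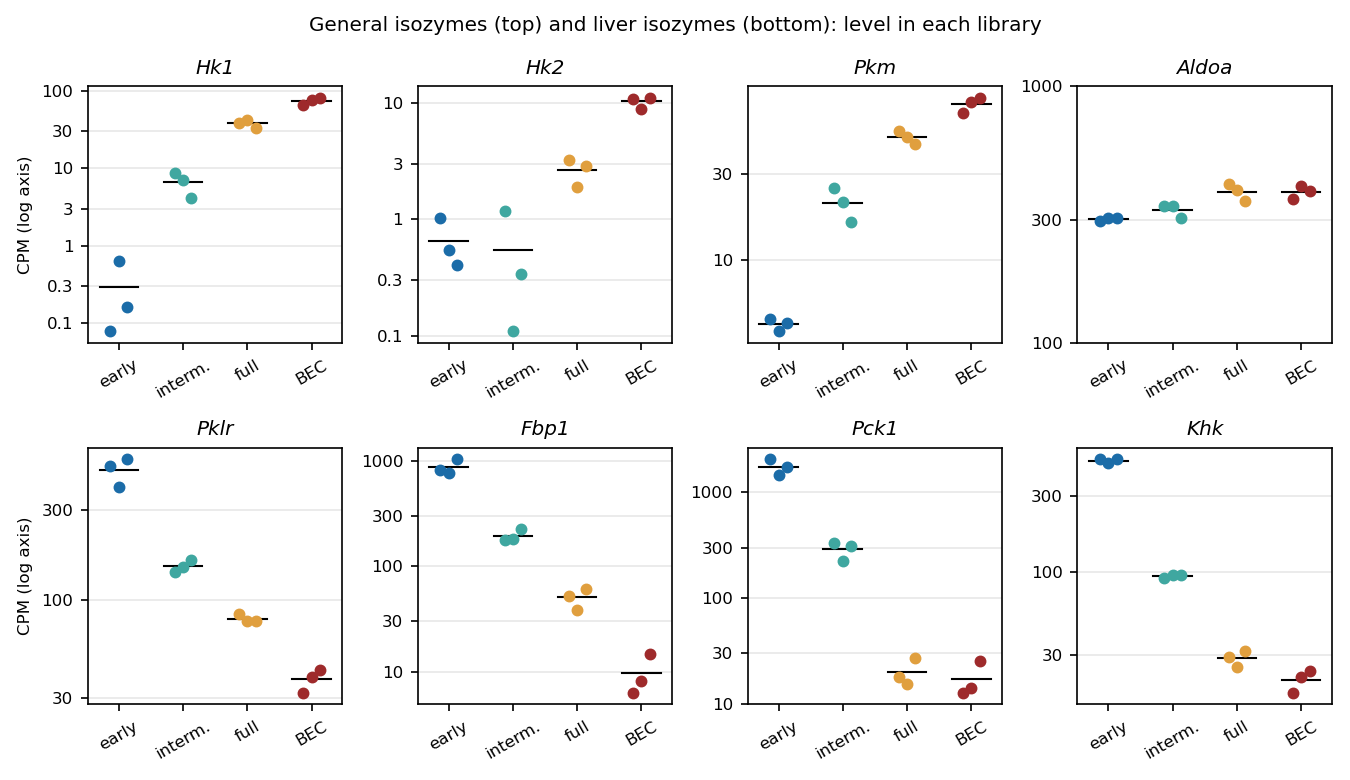
CPM of the 8 genes in each library on log axes, general isozymes in the top row and liver enzymes in the bottom row. Points are libraries (replicates 1 to 3 from left to right in each group) and bars are group means (n = 3). Hk1 and Pkm rise and Pklr, Fbp1 and Khk fall from group to group without overlap between neighbouring groups, while Aldoa stays between 297.6 and 414.2 CPM. How many of all genes lie without overlap was not counted.

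Glucose is trapped in cells by the hexokinases. Hk1, the isozyme of most tissues, was at 0.0791, 0.637 and 0.162 CPM in early libraries 1 to 3, at 8.74, 7.01 and 4.08 in the intermediate ones, at 38.5, 42.1 and 33.1 in the full ones, and at 65.0, 75.0 and 81.2 in BEC. No library of a later group overlapped one of an earlier group. The early values rest on 1, 7 and 2 counts, at or under the floor of 3 counts in 2 of the 3 libraries, so the size of the first rise is loosely fixed. The pooled counts gave an intermediate level 23.5 times that of early (95% exact counting interval 12.6 to 49.5), and a BEC level 266 times that of early (144 to 555). From early to BEC the log2 fold change was 8.01, and it ran from 7.55 to 9.18 in fits that left out 1 library each. Hk1 rose by a log2 fold change of 4.53 (SE 0.45, adjusted p = 1.82e-06; 5.697 without early replicate 2) to intermediate, 2.52 (SE 0.24, adjusted p = 2e-06) to full and 0.96 (SE 0.21, adjusted p = 0.00433) from full to BEC.

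Hk2, the hexokinase of muscle, fat and many dividing cells, was the other low gene in early cells. Its levels were 1.03, 0.546 and 0.405 CPM in early, 1.19, 0.110 and 0.340 in intermediate, 3.23, 1.92 and 2.89 in full, and 10.9, 8.99 and 11.2 in BEC. The early and intermediate libraries overlapped, at 5 to 13 and 2 to 19 counts respectively, and every full library lay above them and below every BEC library. The difference of intermediate from early was -0.32 on the log2 scale (SE 0.64, adjusted p = 0.698), which does not show that the groups were alike: the pooled counts gave a ratio of 0.781 (95% exact counting interval 0.434 to 1.41). Hk2 then rose by 2.33 (SE 0.51, adjusted p = 0.00236) to full (3.55 without intermediate replicate 1 and 1.82 without intermediate replicate 2), and it was higher by 1.94 (SE 0.40, adjusted p = 0.00285) in BEC than in full. Of 12 cell cycle genes examined, all 12 fell to intermediate, where 25.7% of all genes fell (4 with library totals, against 10%), all 12 rose to full under both scalings, where 20.8% and 32.3% of all genes rose, and none was called by edgeR between full and BEC (median log2 fold change -0.06, unadjusted p of 0.587 and above), with summed levels of 41.7 to 147 CPM in early, 17.1 to 33.7 in intermediate, 218 to 305.5 in full and 239.7 to 331 in BEC. Their part in the Hk2 result was not tested.

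Hkdc1 and Hk3 are further members of the hexokinase family. Hkdc1, a hexokinase gene that lies next to Hk1, had means of 50.2 ± 20.5, 51.9 ± 17.6, 76.9 ± 16.2 and 93.5 ± 7.45 CPM in early, intermediate, full and BEC (SD, n = 3). No single step of Hkdc1 was called, although BEC exceeded early by 0.90 (SE 0.26, adjusted p = 0.00737). These calls are from the fit without the replicate numbers, and the replicate block was not examined for this gene. Hk3, the hexokinase of white blood cells, had at most 15 counts in a library and did not pass the filter.

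Aldolase splits fructose-1,6-bisphosphate. Aldoa, the general aldolase, was already abundant in early cells, at 297.6, 305.4 and 306.6 CPM, against 340.7, 341.3 and 306.4 in intermediate, 414, 393 and 355 in full, and 362, 408.5 and 392 in BEC. The lowest intermediate library lay within the early range, and the BEC libraries lay within the range of the full ones. From early to BEC the rise was 0.35 on the log2 scale (SE 0.09, adjusted p = 0.00302), the smallest change of the 8 genes. The step to intermediate was 0.12 (SE 0.09, adjusted p = 0.286), and with counts scaled only by library totals it was 0.79 (adjusted p = 5.28e-06). The step to full was 0.23 (SE 0.09, adjusted p = 0.0545) and was not called. It was called with the replicate number as a block (adjusted p = 0.0342), under DESeq2 (0.00483), with each of the 3 other scalings (0.0275, 0.011 and 0.00189), with a mean of at least 50 counts (0.028) and in the fit of the 6 libraries (0.0475), at changes of 0.23 to 0.43, and it was not called without the filter (0.162) or with a 2-fold minimum. BEC and full differed by 0.00 (SE 0.09, adjusted p = 0.999).

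Aldoc, the aldolase of brain, fell by 1.09 to intermediate (SE 0.19, adjusted p = 0.000273; -0.43 and adjusted p = 0.0593 with library totals) and rose by 0.74 to full and 0.70 to BEC, from means of 38.9 in early to 18.3, 30.4 and 49.5 CPM.

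Pyruvate kinase makes pyruvate and ATP in the last step of glycolysis. Pkm, the general gene, was at 4.67, 4.00 and 4.45 CPM in early libraries 1 to 3, at 25.1, 20.8 and 16.2 in intermediate, at 52.0, 48.1 and 43.8 in full, and at 65.4, 75.4 and 79.5 in BEC. Groups did not overlap at any step. Pkm rose 4.71-fold to intermediate (log2 fold change 2.24, SE 0.17, adjusted p = 1.37e-07), 2.32-fold to full (1.21, SE 0.14, adjusted p = 1.39e-05) and 1.53-fold from full to BEC (0.61, SE 0.14, adjusted p = 0.0047). Gm49759, a predicted transcript on the same strand, overlaps Pkm over 767 bp and had 1 to 8 counts in early and 51 to 60 in BEC, against 44 to 59 and 1358 to 1739 for Pkm. Counts per gene do not separate the M1 and M2 forms. Of 5 splicing factors known to act on the choice of Pkm exon, Hnrnpa1 (0.92), Srsf3 (0.62) and Ptbp1 (0.45) rose to intermediate and Hnrnpa2b1 fell by 0.31, a fall that became a rise of 0.35 with library totals. At that step 28.7% of all genes rose and 25.7% fell (59.4% and 10% with library totals). At the step to full Hnrnpa1 alone was called (0.33), where 20.8% of all genes rose. With library totals 4 of the 5 rose, against 32.3% of all genes. From full to BEC the 5 had edgeR adjusted p of 0.428 and above (unadjusted 0.205 and above).

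Pklr, the pyruvate kinase of liver and red cells, moved the other way. Its levels were 515, 400.5 and 562.5 CPM in early, 140, 149.6 and 163.9 in intermediate, 83.5, 77.2 and 76.8 in full, and 31.9, 38.6 and 42.5 in BEC, again with no overlap between neighbouring groups. Pklr fell by 1.70 on the log2 scale (SE 0.13, adjusted p = 1.82e-07) to intermediate, by 0.93 (SE 0.13, adjusted p = 7.9e-05) to full and by 1.07 (SE 0.13, adjusted p = 5.86e-05) from full to BEC. Hcn3, an ion channel gene on the opposite strand, overlaps Pklr over 711 bp. Whether reads were counted by strand is not given in the sources used here, so reads of the pair may be mixed, which was not tested. Hcn3 had 245 to 341 counts in early and 51 to 101 in BEC, against 4404 to 6950 and 663 to 929 for Pklr. Of 10 red cell markers 3 were tested. All 3 fell to intermediate (2 with library totals), 1 fell to full, and 1 was higher in BEC than in full, where 25.7%, 19.8% and 10.7% of all genes did so. The list summed to 87.2 to 150.1 CPM in early, 39.2 to 49.1 in intermediate, 45.5 to 51.5 in full and 83.6 to 102 in BEC. The haemoglobin genes Hba-a1, Hba-a2, Hbb-bs and Hbb-bt had at most 3 counts in any library of any group. The part of red cells in the fall of Pklr was not tested.

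Fbp1 removes a phosphate from fructose-1,6-bisphosphate and so reverses the committed step of glycolysis. Fbp1 levels were 821, 761 and 1034 CPM in early, 175.5, 181.7 and 224.8 in intermediate, 52.5, 38.7 and 61.0 in full, and 6.31, 8.20 and 14.5 in BEC. Neighbouring groups did not overlap, and BEC lay below full. The log2 fold changes were -2.17 (SE 0.25, adjusted p = 5.74e-06), -1.93 (SE 0.25, adjusted p = 3.22e-05) and -2.39 (SE 0.26, adjusted p = 1.91e-05) at the 3 comparisons, the last a 5.23-fold difference between converted hepatocytes and BEC. Fbp2, the muscle isozyme, had at most 16 counts in a library and made up at most 0.808% of the level of both genes per length in any group mean.

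Pck1, the cytosolic enzyme that commits oxaloacetate to glucose, had the largest fall of the 8 genes from intermediate to full. Pck1 levels were 2064, 1451 and 1749 CPM in early, 332, 223 and 311 in intermediate, 17.9, 15.6 and 26.9 in full, and 12.8, 14.1 and 25.2 in BEC. The first 3 groups did not overlap, whereas full and BEC did. Pck1 fell by 2.60 on the log2 scale (SE 0.27, adjusted p = 2.21e-06) to intermediate and fell by 3.84 (SE 0.29, adjusted p = 3.38e-07) to full, and the difference of BEC from full was -0.21 (SE 0.27, adjusted p = 0.664). Replicate 3 was the highest library of both full and BEC. Pck2, the mitochondrial form, went the other way to intermediate: its means were 28.5 ± 5.89, 56.6 ± 5.63, 71.1 ± 1.62 and 64.2 ± 7.64 CPM (SD, n = 3), with a rise of 0.99 to intermediate (SE 0.14, adjusted p = 4.15e-05). Its step to full was 0.33 (SE 0.13, adjusted p = 0.0642) and was not called.

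Khk phosphorylates fructose and so starts its breakdown. Khk levels were 513, 482.5 and 513 CPM in early, 92.1, 95.6 and 96.2 in intermediate, 29.3, 25.1 and 31.7 in full, and 17.3, 21.7 and 23.7 in BEC. Its replicates were the tightest of the liver enzymes in early and intermediate cells, and no groups overlapped. Khk fell by 2.41 on the log2 scale (SE 0.12, adjusted p = 2.58e-09), by 1.72 (SE 0.12, adjusted p = 1.59e-07) and by 0.46 (SE 0.12, adjusted p = 0.0119) at the 3 comparisons. The last call rested on full replicate 3: without it the difference was -0.38 (adjusted p = 0.0669).

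The sizes of the first and second steps were compared directly for each gene, in a test added after the data were seen, which called 16.4% of all genes. Pkm rose less at the second step than at the first (difference of log2 fold changes -1.02, SE 0.26, adjusted p = 0.0164), and the falls of Pklr (0.77, adjusted p = 0.0357) and Khk (0.69, adjusted p = 0.0305) were smaller at the second. These calls are not stable. In 12 fits that each left out 1 library, that of Pklr was lost in 9 (0.66 to 0.89, adjusted p = 0.052 to 0.142), all but those without early replicate 2, BEC replicate 1 or BEC replicate 3. That of Khk was lost in 6 (0.60 to 0.70, adjusted p = 0.0527 to 0.105), without early replicate 3, any 1 intermediate library, or full replicate 1 or 3. That of Pkm was lost without intermediate replicate 1 (-0.71, adjusted p = 0.0957) or 2 (-1.02, adjusted p = 0.0578). With library totals Pklr and Khk were not called (adjusted p = 0.309 and 0.387). For Hk2 the difference between steps was 2.65 (SE 1.03, adjusted p = 0.100), so its later start was not called here. With the replicate number as a block it was called (adjusted p = 0.0414), as were Hk1 (adjusted p = 0.0481) and Pck1 (adjusted p = 0.00768). Hk1 and Hk2 were also called under DESeq2 (adjusted p = 0.0103 and 0.019), Hk1 and Pck1 with library totals (adjusted p = 0.0101 and 0.00691), and all 3 without the filter on low counts (adjusted p = 0.000792, 0.0155 and 0.000112 for Hk1, Hk2 and Pck1). The share of all genes called under these other settings was not counted.

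Ratios of 2 genes within a library depend little on how the libraries were scaled. They were taken as the difference of log2 CPM with a prior count of 2, without a correction for length, so their changes between groups are read here and not which gene of a pair was the more abundant. The ratio of Pkm to Pklr averaged -6.77 ± 0.17, -2.88 ± 0.43, -0.72 ± 0.07 and 0.97 ± 0.07 in early, intermediate, full and BEC libraries (SD, n = 3). The ratio of Hk1 to Khk went from -10.55 ± 1.08 to -3.88 ± 0.58, 0.40 ± 0.34 and 1.82 ± 0.07, where the early value rests on 1, 7 and 2 counts of Hk1 and moves with the prior count. In both ratios, no library of a later group overlapped one of an earlier group.

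Ratios of Aldoa and Pkm to the gluconeogenic genes Fbp1 and Pck1 moved in the same direction. They restate the changes of the single genes. From early to BEC, Aldoa changed by 0.35 on the log2 scale and Fbp1 by -6.49, and Pkm by 4.06 and Pck1 by -6.66. The ratio of Aldoa to Fbp1 rose from -1.51 ± 0.22 in early to 0.77 ± 0.28, 2.95 ± 0.40 and 5.39 ± 0.57 in the later groups (SD, n = 3), and that of Pkm to Pck1 from -8.60 ± 0.15 to -3.80 ± 0.42, 1.28 ± 0.51 and 2.14 ± 0.42. The ratio of Pck2 to Pck1 went from -5.94 ± 0.05 to -2.33 ± 0.38, 1.85 ± 0.43 and 1.94 ± 0.40. Within the hexokinases, the ratio of Hk2 to Hk1 went from 1.11 ± 1.40 in early, where both were near the floor, to -3.67 ± 1.20, -3.79 ± 0.51 and -2.82 ± 0.24. Of 40 exact permutation tests (10 ratios in 4 comparisons, 2-sided), 37 reached p = 0.1, the smallest that 3 against 3 libraries can give (0.108 after adjustment over the 40), so none can pass 0.05. Other gene pairs were not tested, so the count of 37 has no background to stand against. Those above it included Hk2 to Hk1 in full against intermediate (exact p = 0.8) and Pck2 to Pck1 in BEC against full (exact p = 0.7).

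**Figure D2:**
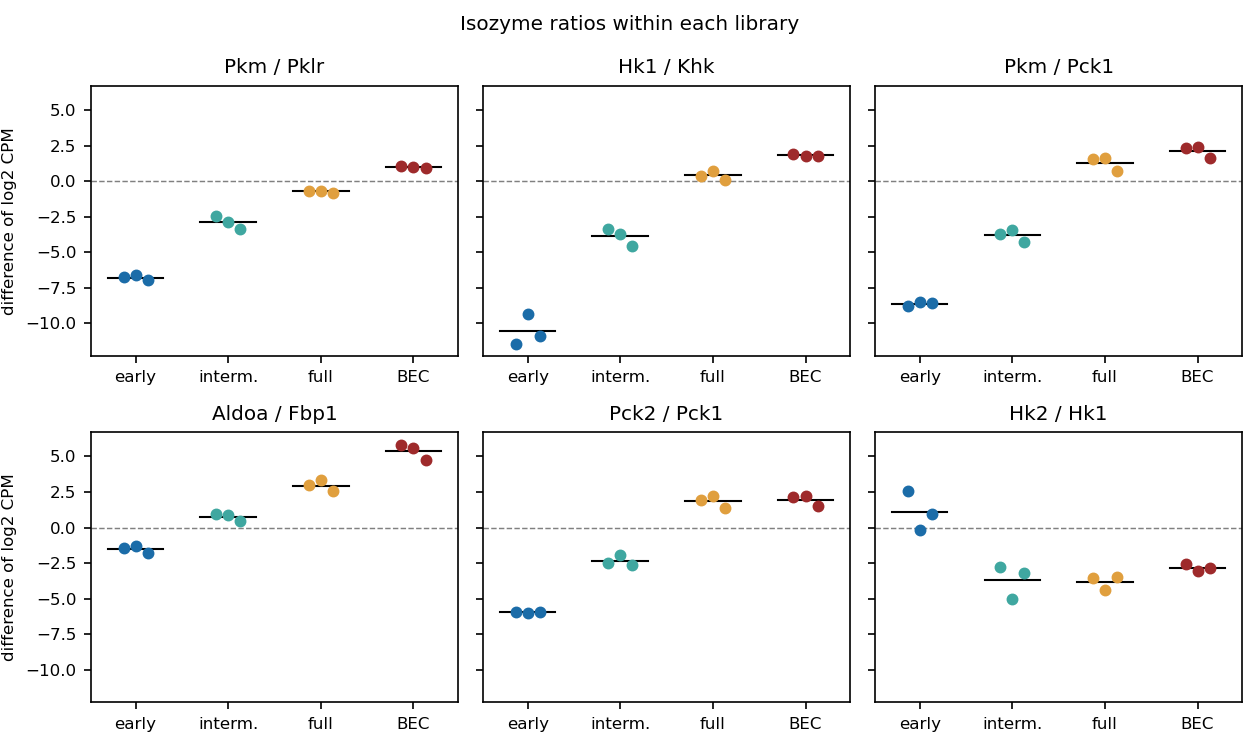
Difference of log2 CPM (prior count 2) between 2 genes within each library, for 6 of the 10 ratios examined. Points are libraries, bars are group means (n = 3) and the dashed line marks a difference of 0 without correction for length. Pkm to Pklr runs from a mean of -6.77 in early to 0.97 in BEC, and Hk2 to Hk1 is the one panel whose early libraries lie above those of the other groups.

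Levels of different genes were compared per length, as CPM per kb of the longest coding transcript. On this scale the liver enzymes Pck1 (659.5 ± 115), Fbp1 (589.5 ± 97.2) and Khk (318 ± 11.0) led the 8 genes in early cells, ahead of Aldoa (196 ± 3.16) and Pklr (170 ± 28.7), with Pkm (1.80 ± 0.140), Hk2 (0.120 ± 0.0593) and Hk1 (0.0684 ± 0.0703) far below (SD, n = 3). The level per kb of Pck1 and Fbp1 differed by less than their spread, as did that of Hk2 and Hk1. In BEC the order was Aldoa (250.2 ± 15.1), Pkm (30.2 ± 2.97), Hk1 (17.2 ± 1.91), Khk (13.2 ± 2.05), Pklr (13.0 ± 1.83), Fbp1 (6.55 ± 2.91), Pck1 (6.53 ± 2.57) and Hk2 (1.88 ± 0.213), where Khk and Pklr, and Fbp1 and Pck1, differed by less than their spread. The order moved with the length used: with all merged exons Pklr (152) stood above Aldoa (81.7) in early, and in BEC Hk1 (8.64) stood below Pklr (11.64) and Khk (11.63).

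The level per kb was then turned into the share of an isozyme in the summed level of the genes for its reaction. Pkm held 1.06% ± 0.122 of the pyruvate kinase level in early, 14.1% ± 3.56 in intermediate, 41.9% ± 1.23 in full and 70.0% ± 0.945 in BEC libraries (SD, n = 3), so Pklr was still the more abundant gene in full cells on this length. With the length of all merged exons, the share of Pkm was 0.578%, 8.22%, 28.1% and 55.9% in the same order.

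Hkdc1 was more abundant per length than either Hk1 or Hk2 in every group mean. Hkdc1 was at 14.3 ± 5.81, 14.8 ± 5.02, 21.9 ± 4.62 and 26.6 ± 2.12 CPM per kb in early, intermediate, full and BEC (SD, n = 3). Hk1 was at 0.0684 ± 0.0703, 1.54 ± 0.551, 8.86 ± 1.05 and 17.2 ± 1.91 CPM per kb, so it was far below Hkdc1 in early cells and neared it in BEC, where Hkdc1 was still the higher (18.2 against 8.64 CPM per kb with merged exons). Hk2 reached 1.88 ± 0.213 CPM per kb in BEC.

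Other reactions, chosen here after their values were seen, exchanged their main gene to different degrees, and no test was made of the shares. Pck2, the partner of Pck1, held 0.923% of the phosphoenolpyruvate carboxykinase level in early and 68.7% in BEC, G6pc3, the general glucose-6-phosphatase, 10.7% and 95.1%, Gys1, the muscle glycogen synthase, 2.57% and 90.3%, and Pygb, the brain glycogen phosphorylase, 13.2% and 94.2%. In each of these the liver partner fell further than the named gene rose. From early to BEC, Pck1 went from 659.5 to 6.53 CPM per kb and Pck2 from 6.17 to 13.9. G6pc went from 72.1 to 1.47 and G6pc3 from 7.78 to 28.4. Gys2 went from 72.5 to 0.732 and Gys1 from 1.89 to 6.57, and Pygl from 241.6 to 3.41 and Pygb from 37.1 to 60.95. Ldhb, the lactate dehydrogenase of heart, rose from 0.103% to 22.2%, with Ldha still at 77.8% in BEC. Enolase did not exchange its main gene: Eno1 held 99.1% in early and 98.5% in BEC. In phosphofructokinase the liver gene Pfkl went from 60.1% to 48.9% and the platelet gene Pfkp from 10.9% to 32.6%, but with merged exons from 54.1% to 51.2% and from 5.49% to 18.9%. Merged exons also gave Pygb 22.1% in early.

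**Figure D3:**
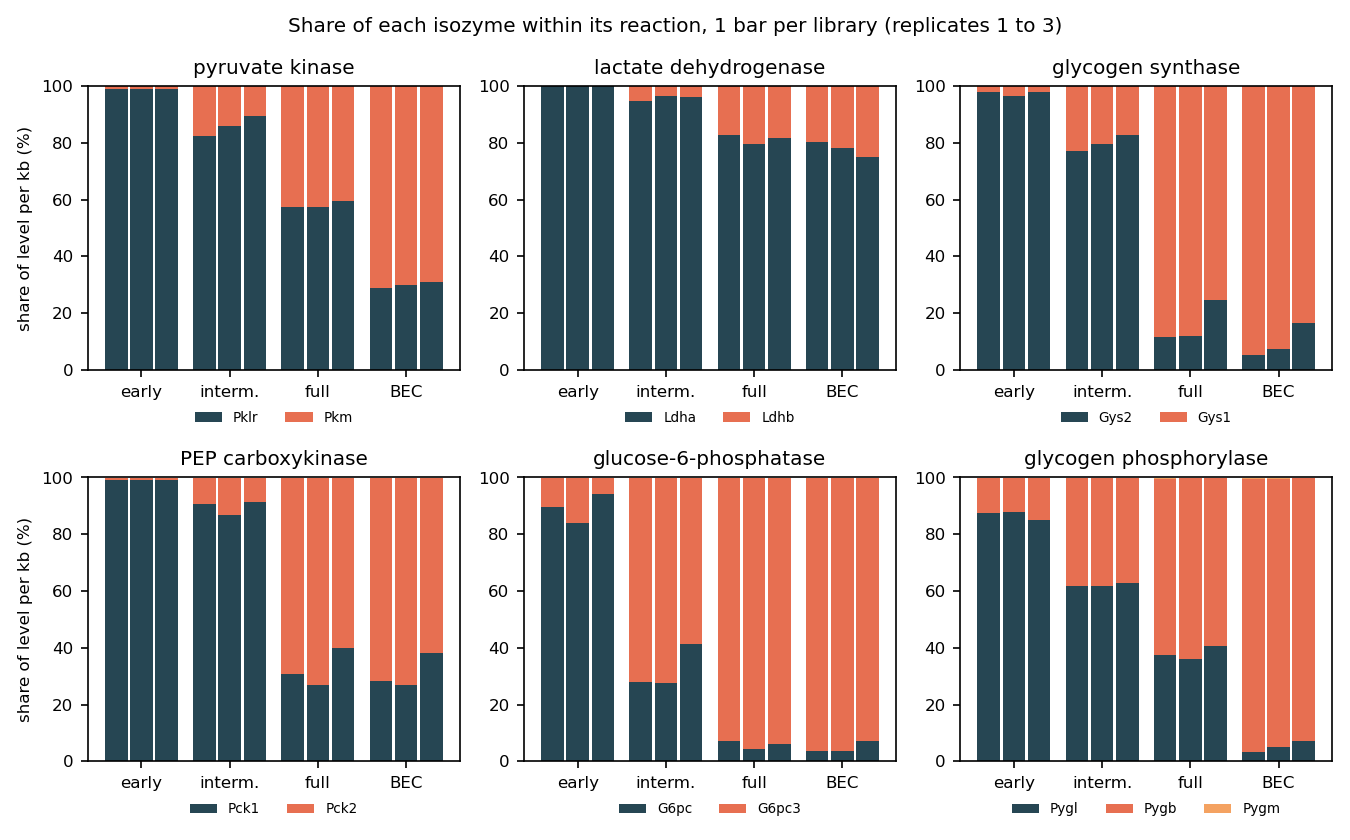
Share of each isozyme in the summed level per kb of the genes for 6 reactions, in percent, with 1 stacked bar per library (replicates 1 to 3 from left to right in each group). The dark segment at the bottom is the gene that leads in early cells, which shrinks from early to BEC, to 29.99% for Pklr in BEC, and lactate dehydrogenase keeps the most of its main gene (Ldha, 77.8% in BEC).

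How far each gene had gone was expressed as the share of its change from early to BEC on the log2 scale. Over 7547 genes that changed at least 2-fold between those groups, the median share was 50.8% in intermediate and 88.3% in full. Hk1 (54.7% ± 7.15 and 87.7% ± 2.23), Pkm (54.4% ± 7.85 and 84.8% ± 3.07) and Khk (52.4% ± 0.744 and 90.0% ± 3.69) lay near these medians (SD, n = 3). Fbp1 (33.0% ± 2.95 and 62.8% ± 5.09) and Pklr (45.7% ± 3.09 and 70.9% ± 1.84) were behind them in full cells, and Pck1 (38.9% ± 4.57 and 96.4% ± 6.09) was behind in intermediate and ahead in full cells. Hk2 stood at -13.7% ± 33.7 and 49.7% ± 9.88, and Aldoa, with its small total change, at 33.6% ± 25.3 and 99.6% ± 31.9. These shares use the same libraries as the fold changes and are given as a description.

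The other genes of sugar metabolism were examined in 11 lists of 115 genes. Their counts stand against the shares of all genes called higher and lower, which were 28.7% and 25.7% to intermediate (59.4% and 10% with library totals), 20.8% and 19.8% to full (32.3% and 12.2%) and 10.7% and 10.6% in BEC against full (10.7% and 10.6%). Of 11 tested gluconeogenesis genes, which include Fbp1 and Pck1, 2 rose and 9 fell in intermediate against early, and 1 rose and 9 fell in full against intermediate (median log2 fold changes -1.96 and -1.10). Pyruvate carboxylase (Pcx) fell by 2.46 and 2.01, the glucose-6-phosphate transporter Slc37a4 by 1.96 and 1.10, and serine dehydratase (Sds) by 3.38 at the second step. All 7 genes for fructose and sorbitol, Khk among them, fell to intermediate (5 with library totals) and 6 of 7 fell to full, including triokinase (Tkfc, -2.50 and -2.26) and sorbitol dehydrogenase (Sord, -2.50 and -3.10). From full to BEC, 3 of the 11 gluconeogenesis genes fell and the other 8, Pck1 among them, were not called (median -0.21).

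Genes of the glycolytic path below hexokinase moved in both directions. Of 18 such genes, a list that itself holds Pklr, Pkm and Aldoa, 4 rose and 11 fell in intermediate against early (median -0.49, with 28.7% of all genes higher and 25.7% lower), 2 rose and 8 fell in full against intermediate (-0.31, with 20.8% and 19.8%), and 3 were higher and 4 lower in BEC than in full (-0.05, with 10.7% and 10.6%). Gapdh had means of 2764 ± 97.0, 1016 ± 49.97, 675 ± 35.6 and 645 ± 12.1 CPM in early, intermediate, full and BEC (SD, n = 3), falls of 1.44 and 0.59 on the log2 scale at the first 2 comparisons. Eno2, the enolase of neurons, had 4, 0 and 1 counts in early and 46, 15 and 23 in intermediate, and its rise was called (adjusted p = 0.000648), with a size that the early counts, at or under the floor in 2 of 3 libraries, fix only loosely. With library totals the first split was 7 higher and 6 lower, and Eno1, lower by 0.35, became higher by 0.31. The median of the list went from -0.49 to 0.18 and that of all genes from 0.06 to 0.72. A change of scaling moves all genes by nearly the same amount, so the gap between these medians is no check on the list. Gapdh, Pgam1, Tpi1, Ldha, Aldoa and Pkm have processed copies in the genome, and how reads shared with copies were treated is not given in the sources used here.

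Of 14 genes around pyruvate and lactate, 2 rose and 10 fell to intermediate (5 and 7 with library totals), and 3 rose and 10 fell to full. Ldhb rose by 4.06 and 1.47 on the log2 scale, from 0.605 to 10.3, 28.4 and 27.9 CPM, and Pdk3, a kinase that turns off pyruvate dehydrogenase, by 4.19 (on 4, 1 and 10 counts in early) and 1.09, from 0.406 to 7.68, 16.4 and 17.4 CPM. Ldhd, which oxidises D-lactate, fell by 2.698 and 1.34. Among 13 glycogen genes 8 fell and 1 rose to intermediate (8 and 4 with library totals) and 7 fell and 1 rose to full. Gys2, the liver glycogen synthase, fell by 2.55 and 3.59, and Pygl, the liver phosphorylase, by 1.90, 1.38 and then 2.86 between full and BEC, from 74.3 to 10.2 CPM. Pygl was thus higher in full cells than in BEC, as were Fbp1, Pklr and Khk. So were 9 of 15 hepatocyte markers, where 10.6% of all genes were lower in BEC.

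Transport and control genes completed the lists. Of 5 fructose 2,6-bisphosphate enzymes, 1 rose and 4 fell to intermediate, 1 rose and 2 fell to full, and 2 were higher in BEC. Of 6 tested glucose phosphorylation genes, Hk1 and Hk2 among them, 1 rose and 3 fell to intermediate. At the step to full 2 rose and 2 fell, and 2 were higher and 1 lower in BEC than in full. These counts use TMM and stand against the shares of all genes given above. Of 7 tested glucose transporters, 1 rose and 4 fell to intermediate (2 and 2 with library totals), 4 rose and 3 fell to full, and 3 rose and 1 fell from full to BEC. Slc2a2, the transporter of hepatocytes, had means of 959, 557, 172 and 68.8 CPM, and Slc2a1, that of most other cells, 26.5, 24.7, 38.9 and 81.5. The first fall of Slc2a2 (-0.78) was not called with library totals (-0.12, adjusted p = 0.589). Of 20 transcriptional regulators of these genes, 5 rose and 10 fell to intermediate, where 28.7% of all genes rose and 25.7% fell (9 and 5 with library totals, against 59.4% and 10%), while 9 fell to full (7 fell and 3 rose with library totals) and 4 were lower in BEC than in full. Klf15 fell by 2.004 and 1.89 at the first 2 comparisons, and Mlxipl, the glucose-sensing factor that acts on Pklr, by 0.89, 1.29 and 1.39, its first fall not called with library totals (-0.23, adjusted p = 0.239). In the pentose phosphate pathway 1 of 8 rose and 5 fell to intermediate (3 and 2 with library totals), 2 rose and 5 fell to full (2 and 1 with library totals), and 4 were higher in BEC than in full. G6pdx, its entry enzyme, rose at each comparison, from 13.5 to 20.5, 44.5 and 70.2 CPM.

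**Figure D4:**
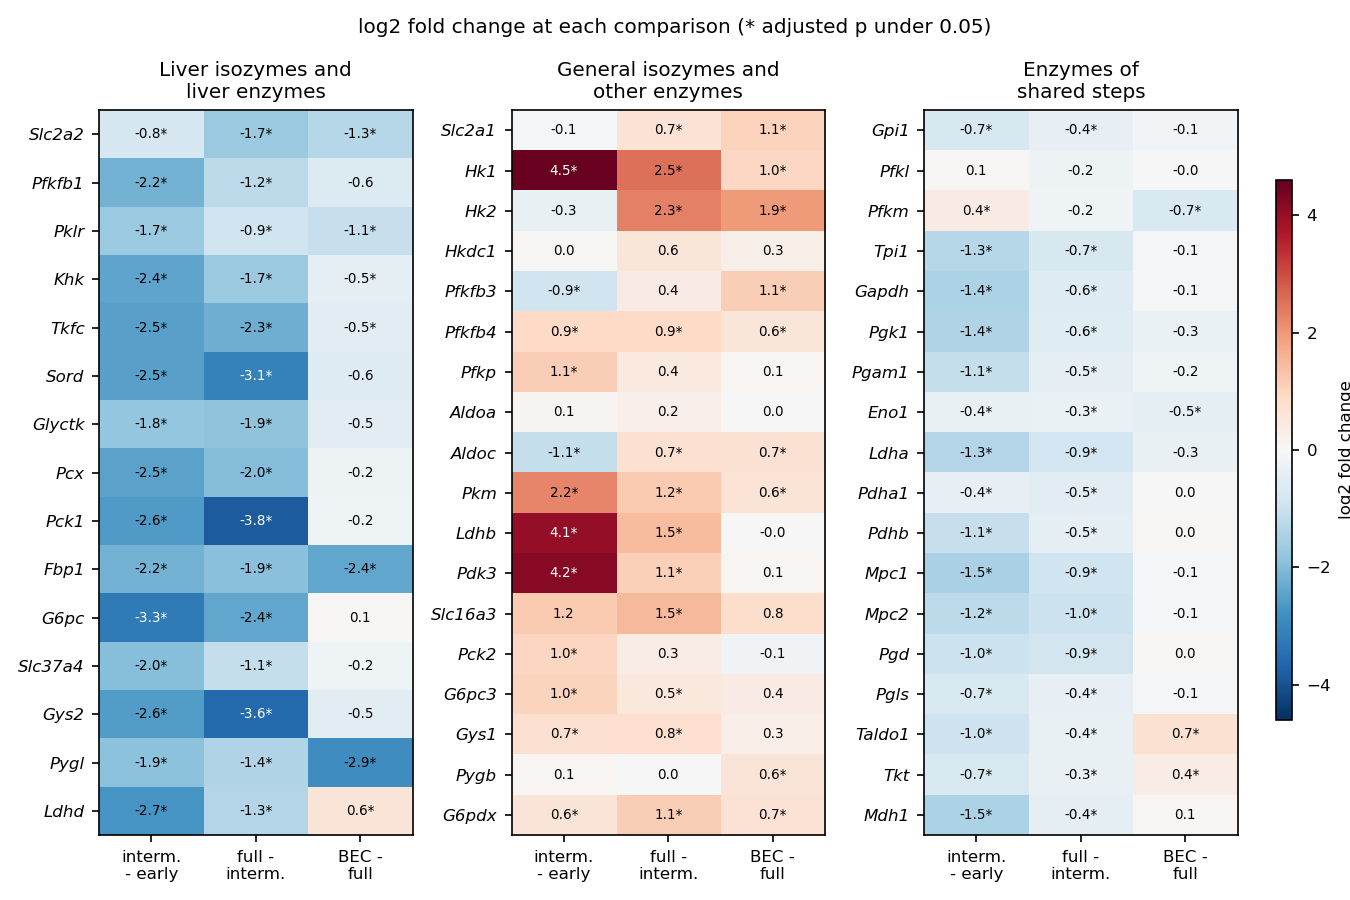
Log2 fold changes of the 8 genes and 43 other genes of sugar metabolism at the 3 successive comparisons, with an asterisk where edgeR's adjusted p was under 0.05. The 43 were chosen from the lists after their values were seen. Blue cells fill the left panel at the first 2 comparisons, the middle panel holds both colours, and the Aldoa row reads 0.1, 0.2 and 0.0.

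Genes whose log2 CPM followed Pkm or Pklr most closely over the 12 libraries were taken from 9963 genes with a mean of at least 10 CPM. For Pkm they were Rab11fip5 (Pearson r 0.998), Plekha2, Syngr1, Magi1 and Rap1gap (each at least 0.996), and for Pklr they were Acsf2 (0.999), Aldh7a1, C1rl, Acp5 and Ttc39c (each at least 0.995). Such closeness was common, since 919 genes had r over 0.95 with Pkm and 1144 with Pklr, and the 12 points fall into 4 groups that set most of the correlation. Between members, Pkm and Hk1 had r = 0.985 and Pkm and Pklr r = -0.976, whereas Pkm and Hk2 had r = 0.746.

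The cell content of the libraries was read from marker lists. Total counts ran from 15112893 to 19731887 per library, and the mitochondrial share was 5.45% to 11.4% in early and 2.20% to 4.75% in the other groups. The summed level of 15 hepatocyte markers was between 123900 and 125800 CPM in early, 20900 and 25240 in intermediate, 4051 and 5302 in full, and 2308 and 3104 in BEC. That of 12 biliary markers was between 1012 and 1977 CPM in early, 9467 and 12330 in intermediate, 12020 and 15210 in full, and 15040 and 18270 in BEC. From early to BEC the liver enzymes fell with the first sum and the general isozymes rose with the second, though Hk2 and Aldoa were not called to intermediate nor Aldoa and Pck1 between full and BEC, and how much of each change came from a mixture of cells within a gate was not tested. The sum of 12 macrophage markers was between 26.3 and 30.1 CPM in early, 31.2 and 43.3 in intermediate, 66.7 and 99.6 in full, and 133.6 and 168.1 in BEC. Csf1r made up most of it in BEC, with means of 3.94 CPM in early and 127 in BEC. C1qa, Adgre1 and Lyz2, also on the list, had means of at most 2.41, 0.522 and 3.98 CPM in any group, and the other markers are not given singly. Of 10 tested macrophage markers, 1 rose and 1 fell from early to BEC with TMM, where 40.0% of all genes rose and 33.0% fell. In BEC against full 2 of the 10 were higher, where 10.7% of all genes were. Neutrophil markers summed to at most 6.43 CPM and T and NK cell markers to at most 0.745 CPM in any library. B cell markers summed to at most 1.18 CPM in early and to between 16.2 and 46.9 in BEC, led by Igkc (mean 34.5), with Cd79a at 0.157 and below. The part of these cells in the rise of Hk1, Hk2 and Pkm was not tested. The sum of 10 endothelial markers was between 51.7 and 63.5 CPM in early, 23.6 and 36.0 in intermediate, 11.0 and 13.3 in full, and 7.75 and 15.5 in BEC, and that of 10 stellate cell and fibroblast markers between 113 and 330.3, 65.6 and 193.7, 49.4 and 85.7, and 64.6 and 109.7. From early to BEC, 3 of 9 tested endothelial and 6 of 9 tested stellate cell markers fell (3 and 1 with library totals), where 33.0% of all genes fell (16.2% with library totals), and their part in the fall of the liver enzymes was not tested.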

How the data were processed

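Bulk RNA from sorted mouse liver cells was sequenced in 12 libraries, and groups and replicate numbers were taken from the sample titles. The authors deposited raw counts per gene symbol, and the submitters' processing notes name STAR 2.7.10b, featureCounts 2.0.1, DESeq2 and GRCm39. Whether counting used strand, and how reads with several matches were handled, is not given in the sources used here. Per the labels, RNA came from a Nucleospin kit and a company made the libraries. The authors' second table, scaled by size factors, was not used.

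The 8 genes, the lists and the tests were chosen with earlier results of these data known, so agreement with those results is no independent support. Counts were filtered by filterByExpr, scaled by TMM and fitted in edgeR 4.0.16 (R 4.3.3, limma 3.58.1) over all 12 libraries with 1 term per group. Log2 CPM used a prior count of 2. At most 3 counts in a library was treated as the floor, and counting intervals (95%, exact) cover counting error only, since PCR reads are not independent molecules. The floor corresponds to 0.128 to 0.273 CPM. The common biological coefficient of variation was 14.8%. Lengths were those of GENCODE M21, and promoter windows those of RefSeq on GRCm38.p6. The named genes were the 8, their partner isozymes, up to 3 genes a list with the largest change, and those said to be chosen later. Some list genes were named outside this rule, such as Slc37a4, which lay at the median of its list. Some partner isozymes are not reported here. Procedures were tested on simulated data. Figures were drawn with matplotlib 3.10.9 in Python 3.11.15.

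Same-numbered libraries deviated together across genes, with r from 0.121 to 0.293 between intermediate and early, 0.137 to 0.322 between full and intermediate and 0.170 to 0.257 between BEC and full. Between BEC and early r was lower, at 0.0442 to 0.145. The numbers may thus pair the libraries. The main fit and its p-values leave such pairing out, and the replicate block takes it in. What the numbers mark is not stated. Alternatives were DESeq2 1.42.0, 3 other scalings, 2 other filters, the replicate block, fits of the 6 libraries compared, a 2-fold minimum, another prior count, and fits that each left out 1 library. The merged exon length and the comparison of step sizes were added after the data were seen.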

Additional observations from a re-analysis of the deposited data

How the results depend on the processing

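The direction of the 8 genes from early to BEC was the same under every alternative run. In the 4 comparisons between groups, counts of the 8 called stayed within 1.5 times the main count, except that with a 2-fold minimum 1 of 8 was called between BEC and full, where all genes called fell to 803, against 2773, 1931 and 6129 for intermediate against early, full against intermediate and BEC against early. With the replicate block, all genes called were 9274, 7300, 4096 and 12122 in the 4 comparisons, and the 8 gave 6, 8, 6 and 8 calls; beside the values given above, the block changed no call among them. Library totals without TMM made 85.6%, 72.6%, 50.3% and 80.3% of calls higher, against 52.8%, 51.2%, 50.1% and 54.8% with TMM, and moved the median of all genes to 0.72, 0.21, 0.01 and 1.004 on the log2 scale, so changes are relative to that shift. They turned Hk2 in intermediate against early to 0.33, and the step differences of Aldoa and Fbp1 to -0.35 and -0.23. Upper-quartile factors made 58.6%, 61.0%, 51.3% and 61.4% of calls higher. Aldoa in BEC against full turned to -0.0297 without the filter and to -0.0149 in the fit of 6 libraries. In fits that left out 1 library each, it ran from -0.0596 to 0.0492, Pck1 in the same comparison from -0.585 to 0.0511, and Hk2 in intermediate against early from -1.54 to 0.178, none of them called; Khk between BEC and full was the only such loss in the 4 comparisons, and Aldoa in full against intermediate gained a call without full replicate 3 (adjusted p = 0.0405) or BEC replicate 1 (adjusted p = 0.043). Of the step differences, 3 of the 8 were called, against 6 with the block or without the filter and 5 under DESeq2. The main fit called 16.4% of all genes in this comparison. The share under the alternatives was not counted, so their 6 and 5 have no background. Hk1 gained a call without early replicate 2 (-3.18) or intermediate replicate 3 (-2.52), Hk2 without intermediate replicate 1 (5.09), and Pck1 without early replicate 1 (-1.38), full replicate 3 (-1.51) or BEC replicate 3 (-1.24). Levels of Hk1 and Hk2 in early cells are limited by depth, at 1 to 13 counts a library.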
